A study of Mus musculus with 6 samples.

Results

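Proteasome genes were examined in αTC1 cells, a mouse glucagonoma line of α cell type, after treatment with compound 1 or with its solvent DMSO. The genes were all protein-coding rows of the count table whose symbol is Psm followed by a letter from a to g and a number. This rule took 48 of 55487 genes, or of 21936 protein-coding genes. They were grouped by symbol and known role into 19 genes of the core particle (Psma, Psmb), 20 of the regulatory particle (Psmc, Psmd), 5 activators and regulators (Psme, Psmf) and 4 assembly factors (Psmg). The study sequenced RNA to analyse splicing under a small molecule that binds the Tudor domain of SMNDC1, a splicing factor of nuclear speckles. The paper calls compound 1 non-selective and reports effects on the related protein SMN as well. The libraries were 3 of αTC1 cells given this inhibitor, labelled G786-1089 and taken here to be compound 1, and 3 of αTC1 cells given DMSO. The cells of both groups were from the same line and carried the wild-type label in the table. By the study's methods, the cells of a replicate were divided between the treatments from a common batch and handled side by side, so libraries of a replicate are tied. The table marks its columns A, B and C without saying that a letter is a replicate, so the fit with the letter as a block is given wherever it changes a call ("with the block"). The labels give neither dose nor duration, and they do not say whether the 3 libraries of a group came from separate cultures, so p-values measure the spread between these libraries, which may be technical.

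The proteasome degrades proteins that carry ubiquitin chains. Its core particle is a barrel of stacked rings, the outer ones of α subunits and the inner ones of β subunits, of which Psmb5, Psmb6 and Psmb7 encode the proteolytic ones. The regulatory particle binds ubiquitin chains, removes them and unfolds the substrate with a ring of ATPases. Interferon induces Psmb8, Psmb9 and Psmb10, which replace the constitutive proteolytic subunits in the immunoproteasome, and NFE2L1 is known to raise the transcription of many subunit genes together when proteasome activity falls short. In a cell that makes as much secretory protein as an endocrine cell, the proteasome also clears misfolded chains returned from the endoplasmic reticulum.

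The libraries held 59070705 to 94747943 counts each, and every compound 1 library was deeper than every DMSO library. The line was checked against marker genes. The summed level of 8 α cell markers was 3100 to 3734 FPKM (fragments per kilobase of exon, scaled to sequencing depth) with compound 1 and 18420 to 20820 FPKM with DMSO, most of it from Gcg, the glucagon gene. Ins1, Pdx1, Sst, Hhex, Ppy, Cpa1, Prss1, Ptf1a, Cd3e, Col3a1 and Cdh5 were at 0 throughout. The summed level of 4 acinar markers was 13.6 to 21.8 FPKM against 4.46 to 10.6 FPKM and came from Cela1 alone, and that of 4 immune markers was 5.85 to 13.9 FPKM against 4.23 to 6.25 FPKM and came almost wholly from Cd68. The part of the marker differences in the results on proteasome genes was not tested. With all libraries thinned to the lowest total of 59070705 counts, 27 proteasome genes were lower, as without thinning. Of all 14828 genes tested on thinned counts, 1182 were lower. In bulk libraries, fewer cells of a kind and less RNA per cell cannot be told apart.

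Proteasome genes were lower with compound 1 than with DMSO, with the genes of the core particle falling most often. Of the 48 genes, 46 had enough counts to be tested, and 27 of them fell, 0 rose and 19 did not pass the test (edgeR quasi-likelihood test, adjusted p under 0.05 over all 15082 genes tested). Over all genes tested, 7.8% fell and 6.98% rose. With the block 21 members fell and 0 rose, against 4.69% and 3.47% of all genes. At an unadjusted p under 0.05, 1 member was higher and 28 were lower, against 14.6% and 13.5% of all genes. DESeq2 called 1 member higher and 27 lower, against 13.2% and 12.8% of all genes with an adjusted p. Limma-trend over genes of at least 1 FPKM also called 1 higher and 27 lower, against 12.5% and 15.3% of all genes with a pseudocount of 1 and 12.2% and 14.8% with 0.1. The member higher in these counts was Psmb10. The median log2 fold change was -0.64 over the members and 0.04 over all genes tested, with 36 members below 0 and 10 above. The normalised counts of 29 members were lower in every compound 1 library than in any DMSO library, against 18.5% of all genes, and 2 members, Psmb10 and Psmd5, were higher in every compound 1 library, against 18.2% of all genes. The study's methods filtered splicing events by gene expression (adjusted p at most 0.1, log2 fold change at least 1 in size). At this expression filter alone, 6 members were lower, against 4.16% of all genes.

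The members together took 1.25%, 1.21% and 1.21% of all counts in the compound 1 libraries A, B and C and 1.65%, 1.61% and 1.61% in the DMSO libraries. Their summed level was 7134, 6996 and 6708 FPKM with compound 1 and 11197, 11016 and 11239 FPKM with DMSO. Both sums were thus lower in each treated library, and the 3 libraries of a group lay close together.

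By group, 13 of 17 tested core genes fell (median log2 fold change -0.86), as did 11 of 20 regulatory particle genes (-0.40) and 3 of 5 activators and regulators (-0.66), whereas 0 of 4 assembly factors passed the test (-0.23). With the block these counts were 12, 8 and 1. Differences between the groups were not tested. Scaling by library size alone moved the median of all genes to 0.25, and the median of the members relative to it was -0.68, as with the scaling used here. With library size alone, 67.2% of all called genes were higher, against 47.2%. In that fit 23 members fell while Psmd5 and Psmb10 rose, against 796 lower and 1630 higher of all 15082 genes tested.

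**Figure D1:**
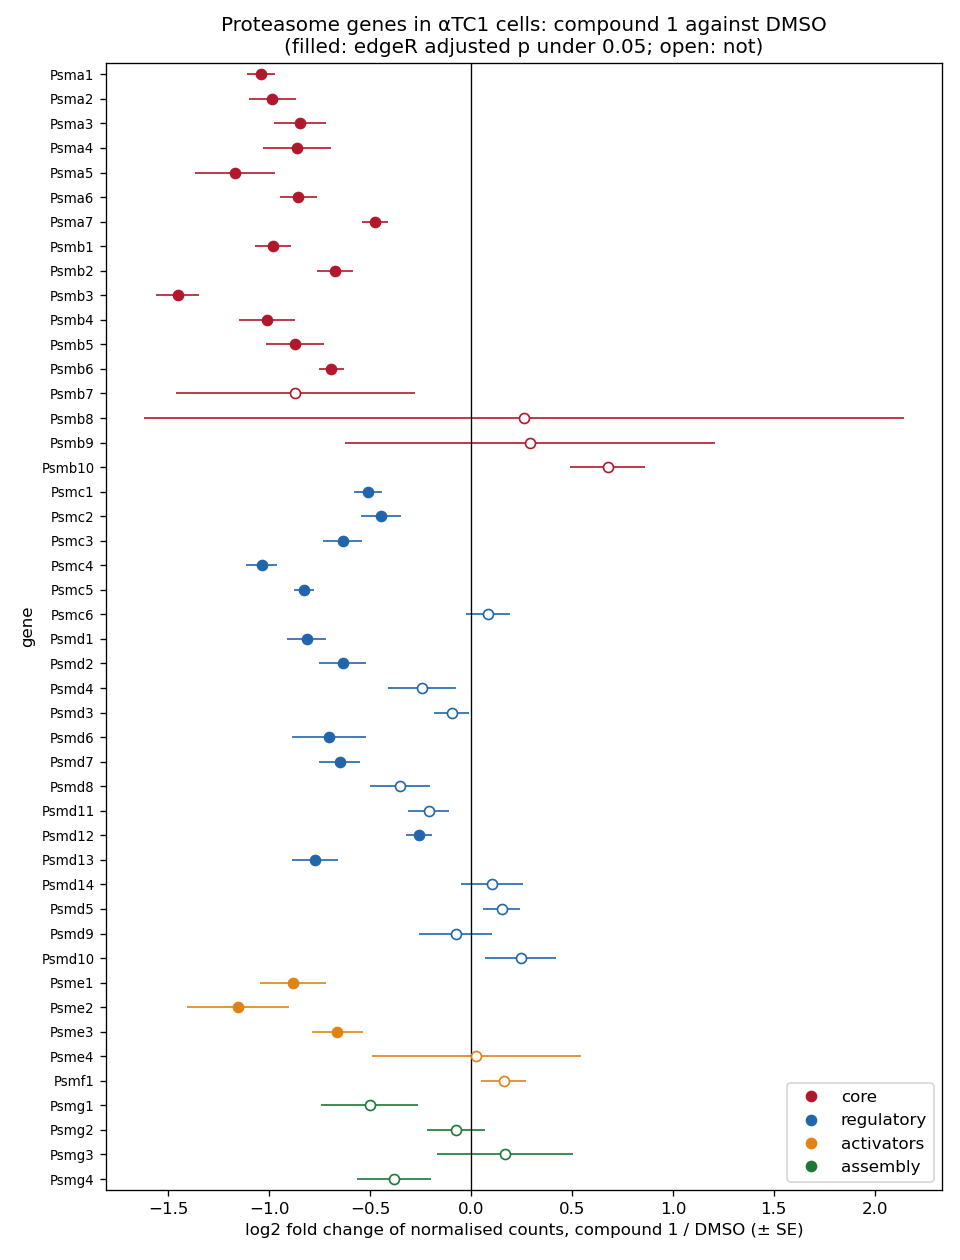
Log2 fold change of normalised counts, compound 1 over DMSO, for the 46 proteasome genes tested, ordered by role from the α ring at the top to the assembly factors at the bottom. Points are edgeR estimates from 3 libraries a group, bars are ± 1 SE, colours mark the groups, and filled points passed the adjusted threshold of 0.05. The α ring and the structural β subunits are filled and left of 0 throughout, whereas the 4 assembly factors are open.

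The α ring forms the gate of the core particle, and all 7 of its subunits fell, Psma1 to Psma7. Psma5 fell by 1.17 ± 0.20 on the log2 scale (± SE, edgeR adjusted p = 0.0112) and Psma1 fell by 1.04 ± 0.07 (edgeR adjusted p = 0.00036). The smallest fall of the ring was that of Psma7, by 0.48 ± 0.07 (edgeR adjusted p = 0.00524). Psma7 was also the most abundant member in both groups, at 1330, 1188 and 1212 FPKM with compound 1 and 1795, 1632 and 1781 FPKM with DMSO.

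Psma5 stood at 61.2, 37.4 and 47.6 FPKM with compound 1 and at 123, 99.3 and 108 FPKM with DMSO, and Psma1 at 310, 302 and 285 FPKM against 589, 613 and 648 FPKM. The ranges of the groups did not overlap for any α subunit. Although the ring holds its subunits in equal number, their mean levels with DMSO ran from 43.2 ± 3.5 FPKM for Psma2 to 1736 ± 90.2 FPKM for Psma7 (SD, n = 3). The exon lengths that enter the FPKM were 2911 bp for Psma2 and 2846 bp for Psma3, against 1148 to 1241 bp for the other α subunits. Psma4 lost its call when compound 1 library C (adjusted p = 0.0655), DMSO library B (0.0600) or DMSO library C (0.0534) was left out of the edgeR fit, and with the block (0.0743). Its log2 fold change was -0.86 ± 0.17 with all libraries.

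The β subunits without proteolytic activity, Psmb1 to Psmb4, all fell as well. Psmb3 fell furthest of all members, to 36.5% of its DMSO level, a log2 fold change of -1.45 ± 0.11 (edgeR adjusted p = 0.000511). Psmb3 lies at chr11:97703399-97713500 (GRCm38, Ensembl annotation). It was measured at 363, 430 and 334 FPKM in the compound 1 libraries and at 960, 1074 and 1061 FPKM in the DMSO libraries, and every treated library was below every control.

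Psmb4 fell by 1.01 ± 0.14, Psmb1 by 0.98 ± 0.09 and Psmb2 by 0.68 ± 0.09 on the log2 scale, with edgeR adjusted p of 0.00524, 0.0012 and 0.00477. These 3 genes stood at 258 ± 14.3, 180 ± 9.57 and 633 ± 15.4 FPKM with DMSO and at 128 ± 23.6, 90.8 ± 8.71 and 396 ± 42.0 FPKM with compound 1 (SD, n = 3). None of their group ranges overlapped.

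Of the constitutive proteolytic subunits, Psmb5 (chymotrypsin-like activity) and Psmb6 (caspase-like activity) fell. Psmb5 was at 63.3, 66.3 and 50.6 FPKM with compound 1 and at 104, 120 and 106 FPKM with DMSO, a log2 fold change of -0.87 ± 0.14 (edgeR adjusted p = 0.00973). Psmb6 was at 762, 718 and 681 FPKM against 1163, 1182 and 1154 FPKM, a log2 fold change of -0.69 ± 0.06 (edgeR adjusted p = 0.0011). For both genes every treated library was below every control. Psmb5 shares its sequence with a processed pseudogene, Gm3375, at 98.9% identity over 796 bases, and the pseudogene was assigned 40.0% of the counts of the pair, so the level of Psmb5 is uncertain. The counts of the pseudogene fell by a like amount, by 0.92 on the log2 scale (edgeR adjusted p = 0.0137).

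Psmb7, the subunit of trypsin-like activity, was hardly counted at all. It had 53 to 125 counts over the 6 libraries, and its level was 1.22 ± 0.39 FPKM with DMSO and 0.664 ± 0.113 FPKM with compound 1 (SD, n = 3). Psmb5 and Psmb6, which occupy the barrel in the same number, were at 110 and 1167 FPKM with DMSO. The log2 fold change of Psmb7 was -0.87 ± 0.59 (edgeR adjusted p = 0.401), the groups overlapped, and a difference was not detectable at this depth. Of the exon bases of Psmb7, 34.9% also lie in exons of another gene. No near-identical transcript of another gene was found for it, and why its count is low was not tested.

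The promoters of Psmb5 and Psmb6 are shown because both genes encode proteolytic subunits that fell and both windows held the core of the antioxidant response element, the motif to which NFE2L1 and NFE2L2 bind with small MAF proteins. The motif was searched as TGACNNNGC on both strands, in windows of 250 bases before to 50 bases after the annotated start (RefSeq, GRCm38.p6), and its match is in capitals. The Psmb5 window is chr14:54617946-54618245 on the minus strand, the Psmb6 window is chr11:70525107-70525406 on the plus strand, and both are written in the direction of the gene.
Psmb5: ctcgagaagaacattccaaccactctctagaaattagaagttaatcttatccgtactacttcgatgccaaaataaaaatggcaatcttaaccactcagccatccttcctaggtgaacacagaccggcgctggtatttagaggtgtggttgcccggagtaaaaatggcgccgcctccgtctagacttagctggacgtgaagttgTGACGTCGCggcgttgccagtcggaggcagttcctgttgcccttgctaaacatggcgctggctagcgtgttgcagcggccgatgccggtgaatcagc
Psmb6: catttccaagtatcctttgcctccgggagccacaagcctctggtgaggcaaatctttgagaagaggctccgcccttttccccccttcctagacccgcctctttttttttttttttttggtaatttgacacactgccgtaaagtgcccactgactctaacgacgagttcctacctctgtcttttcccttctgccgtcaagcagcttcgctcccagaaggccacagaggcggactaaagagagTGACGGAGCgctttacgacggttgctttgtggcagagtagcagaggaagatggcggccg
The match begins 47 bases before the start in Psmb5 and 9 bases before it in Psmb6. Windows were found for 40 of the 48 members, all but Psma8, Psmb1, Psmb2, Psmb7, Psmc3, Psmd3, Psmd7 and Psmg2, which were not searched, and 6 of these 40 (15%) held the motif, against 14% of all genes with a window. Psmb5, Psmb6 and Psmd12 fell, whereas Psmc6, Psmd9 and Psme4, which also held it, did not pass the test. The letters CCAAT, searched on both strands, were present in 14 of the 40 members (35%) and in 41.1% of all genes. Both shares were close to those of all genes, and a match of letters is a description and not a bound site.

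Of the inducible proteolytic subunits, Psmb10 did not fall with the others, whereas a difference in Psmb8 and Psmb9 was not detectable at their low levels. Psmb10, at chr8:105935735-105938444, was measured at 46.0, 51.3 and 52.6 FPKM with compound 1 and at 27.1, 39.3 and 27.6 FPKM with DMSO. Every treated library was thus above every control. Its log2 fold change was 0.68 ± 0.19 (edgeR adjusted p = 0.0565), just short of the threshold. Psmb10 passed the threshold in 7 of 19 alternatives, among them gene length offsets (adjusted p = 0.0303), the fit without DMSO library B (0.0285) and DESeq2 (0.00316). It did not pass without any of the other 5 libraries (0.0968 to 0.164), with the block (0.0872) or with GC content offsets (0.0531). Psmb8 and Psmb9, the other inducible subunits, were at low levels. Psmb8 ranged from 0 to 1.93 FPKM and Psmb9 from 0.250 to 2.27 FPKM over the 6 libraries, their groups overlapped, and their log2 fold changes of 0.26 ± 1.88 and 0.29 ± 0.92 had edgeR adjusted p of 0.948 and 0.874.

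Relative to Psmb5 and Psmb6 of the same library, Psmb10 stood higher with compound 1. No ratio was formed to Psmb7, the remaining constitutive proteolytic subunit, which was hardly counted. The ratio of Psmb10 to Psmb5 in FPKM was 0.727, 0.775 and 1.04 with compound 1 and 0.260, 0.329 and 0.260 with DMSO. The size of this ratio is uncertain, as is the level of Psmb5, because of the pseudogene Gm3375. The ratio of Psmb10 to Psmb6 was 0.0604, 0.0715 and 0.0772 against 0.0233, 0.0333 and 0.0239. Neither pair of ranges overlapped, and no p is given, since the ratio was formed with these values known. Both ratios restate the levels given above, and an exchange of subunits in the particle was not tested. The remaining core genes are tissue-specific. Psma8, the testis α subunit, had 0 counts in all libraries, and Psmb11, the thymus β subunit, had 2 counts in a single compound 1 library.

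**Figure D2:**
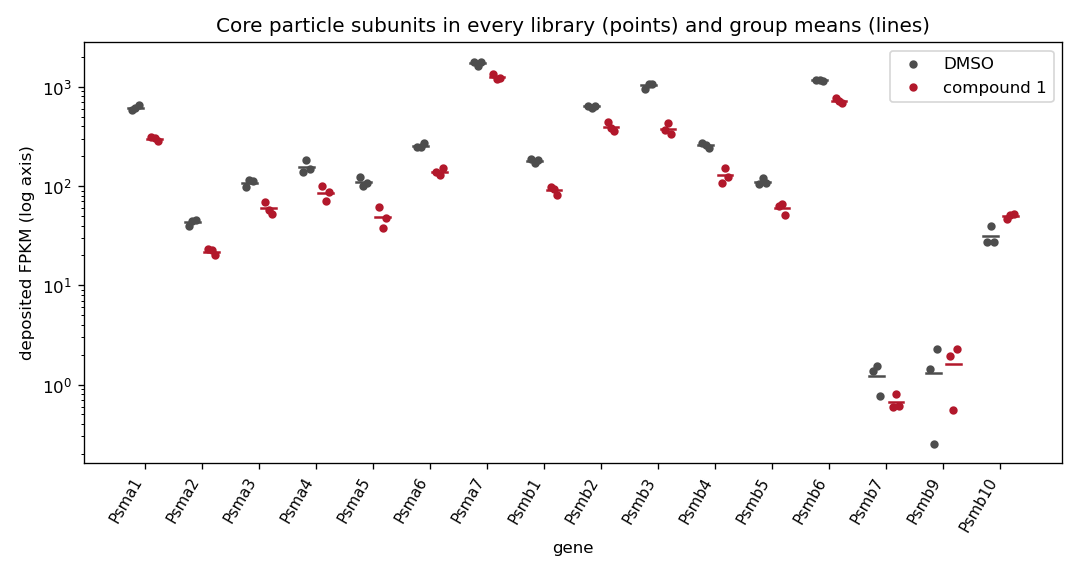
FPKM of the core particle genes in each library (points, log axis) with the mean of each group (lines), DMSO in grey and compound 1 in red. Psma8, Psmb8 and Psmb11, which were at 0 in some libraries, are left out. Grey points lie above red points from Psma1 to Psmb6, overlap them for Psmb7 and Psmb9, and lie below them for Psmb10.

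The ATPases of the regulatory particle, which unfold substrates and open the gate, fell in 5 of 6 cases. Psmc4 fell by 1.04 ± 0.08 on the log2 scale (edgeR adjusted p = 0.000532) and Psmc5 by 0.83 ± 0.05 (edgeR adjusted p = 0.000241). Psmc4 was at 258, 227 and 238 FPKM with compound 1 and at 519, 470 and 500.4 FPKM with DMSO. Psmc5 was the most abundant of the ATPases, at 507, 525 and 509 FPKM against 921, 916 and 904 FPKM. In both genes the libraries of a group differed little and the groups lay far apart.

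Psmc3, Psmc1 and Psmc2 fell less, with log2 fold changes of -0.64 ± 0.10, -0.51 ± 0.07 and -0.44 ± 0.10 and edgeR adjusted p of 0.00741, 0.00515 and 0.0286. The call on Psmc2 was lost without compound 1 library B (adjusted p = 0.0798), compound 1 library C (0.0862), DMSO library A (0.0952) or DMSO library C (0.0904), and with gene length offsets (0.0620). Psmc6 was at 69.2, 58.0 and 66.4 FPKM with compound 1 and at 56.2, 62.4 and 64.4 FPKM with DMSO. Its groups overlapped, and its log2 fold change was 0.08 ± 0.11 (edgeR adjusted p = 0.688).

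Psmd1 and Psmd2, the large scaffold subunits of the base that dock ubiquitin receptors and shuttles, fell by 0.81 ± 0.10 and 0.64 ± 0.12 on the log2 scale (edgeR adjusted p = 0.00305 and 0.0146). Psmd1 was at 127, 108 and 107 FPKM with compound 1 and at 213, 205 and 185 FPKM with DMSO. The call on Psmd2 was lost without DMSO library A (adjusted p = 0.0533) or DMSO library C (0.0550) and with the block (0.0609). Psmd4, an intrinsic ubiquitin receptor, had overlapping groups, at 148, 220 and 188 FPKM against 242, 234 and 184 FPKM, and a log2 fold change of -0.24 ± 0.17 (edgeR adjusted p = 0.409).

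The lid, which holds the deubiquitinase Psmd14, was split, with 4 of 8 genes lower. Psmd13, Psmd6, Psmd7 and Psmd12 had log2 fold changes of -0.77 ± 0.11, -0.70 ± 0.18, -0.65 ± 0.10 and -0.26 ± 0.06, and edgeR adjusted p of 0.00659, 0.0464, 0.00776 and 0.0385. Psmd13 was at 52.9, 55.0 and 58.4 FPKM with compound 1 and at 106, 83.9 and 94.8 FPKM with DMSO. The calls on Psmd6 and Psmd12 were weak. That on Psmd6 was lost without compound 1 library B or C or any of the DMSO libraries A, B and C (adjusted p 0.0763 to 0.129), and that on Psmd12 without any of the 6 libraries (0.0645 to 0.130). With the block, the adjusted p was 0.0666 for Psmd6 and 0.11 for Psmd12.

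Psmd14, which removes the ubiquitin chain as the substrate enters, was at 76.3, 65.1 and 78.8 FPKM with compound 1 and at 57.7, 67.0 and 80.6 FPKM with DMSO. Its log2 fold change was 0.11 ± 0.15 (edgeR adjusted p = 0.725), and its groups overlapped. Psmd3, Psmd8 and Psmd11 did not pass the test either, at -0.10 ± 0.09, -0.35 ± 0.15 and -0.21 ± 0.10. Psmd8 was nonetheless lower in each treated library, at 56.0, 40.1 and 52.5 FPKM against 61.0, 67.7 and 61.5 FPKM. Psmd11 was also lower in each in FPKM, at 153, 134 and 140 against 155, 186 and 154, but its normalised counts overlapped.

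Psmd5, Psmd9 and Psmd10 encode chaperones that hold ATPase modules during assembly of the base and leave the finished particle. None of the 3 passed the test. Their log2 fold changes were 0.15 ± 0.09, -0.08 ± 0.18 and 0.25 ± 0.17 (edgeR adjusted p = 0.34, 0.835 and 0.425). Psmd5 was at 32.0, 32.8 and 34.5 FPKM with compound 1 and at 28.4, 31.6 and 29.7 FPKM with DMSO, and its log2 fold change turned to -0.06 with gene length offsets.

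**Figure D3:**
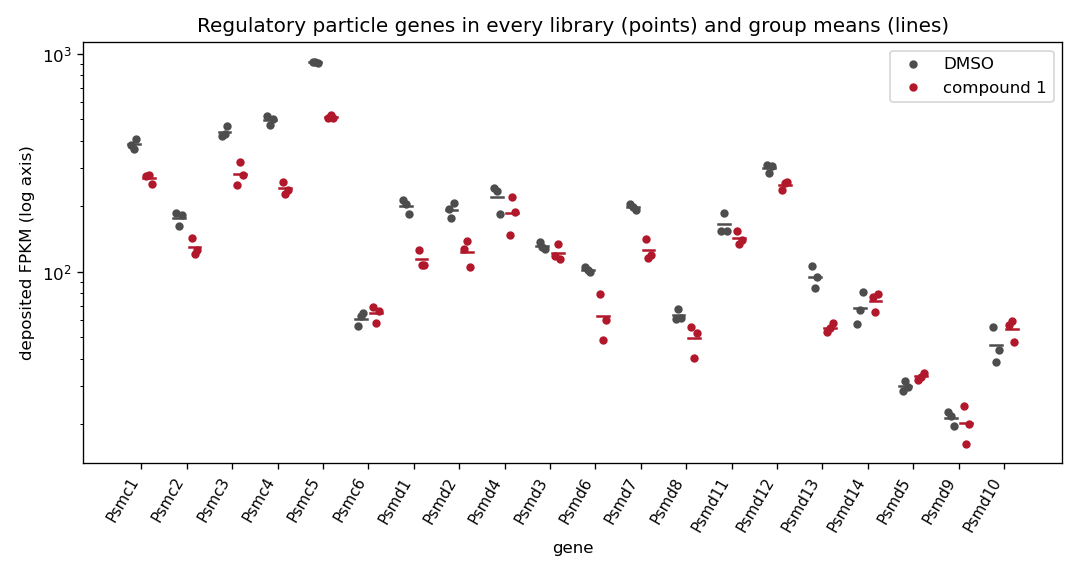
FPKM of the 20 regulatory particle genes in each library (points, log axis) with the mean of each group (lines), DMSO in grey and compound 1 in red. Groups lie apart for Psmc1 to Psmc5, Psmd1 and Psmd2, and overlap for Psmc6, Psmd3, Psmd4, Psmd14, Psmd9 and Psmd10.

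Among the activators, Psme1 and Psme2 encode the interferon-inducible cap of the core particle and Psme3 its nuclear relative, and all of them fell. Psme2 was at 17.1, 24.7 and 14.6 FPKM with compound 1 and at 49.3, 34.9 and 41.4 FPKM with DMSO, a log2 fold change of -1.15 ± 0.25 (edgeR adjusted p = 0.0271). Psme1 was at 36.5, 34.0 and 38.8 FPKM against 73.1, 54.7 and 74.7 FPKM, a log2 fold change of -0.88 ± 0.16 (edgeR adjusted p = 0.0151). Psme3 was at 24.2, 22.8 and 27.3 FPKM against 42.8, 36.2 and 38.8 FPKM, a log2 fold change of -0.66 ± 0.13 (edgeR adjusted p = 0.0172). For each of these genes every treated library was below every control.

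The calls on the activators depended on single libraries. Psme1 lost its call without compound 1 library B (adjusted p = 0.0504), DMSO library A (0.0586) or DMSO library C (0.0575). Psme2 lost it without compound 1 library A or C or any of the DMSO libraries A, B and C (0.0515 to 0.0922), and Psme3 without compound 1 library A or B or DMSO library A or C (0.0514 to 0.0668). With the block the adjusted p was 0.0782 for Psme2 and 0.0511 for Psme3. Psme2b, a near-identical protein-coding copy, held 3.2% of the counts it shared with Psme2.

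Psme4, the large activator of nuclear proteasomes, was at 1.28, 0.483 and 1.36 FPKM with compound 1 and at 0.909, 0.682 and 1.49 FPKM with DMSO. Its log2 fold change of 0.03 ± 0.52 (edgeR adjusted p = 0.982) took the opposite sign in several other fits. Psmf1, whose product binds and inhibits the core particle in vitro, was at 70.8, 80.7 and 73.5 FPKM against 69.2, 74.3 and 58.2 FPKM, with a log2 fold change of 0.16 ± 0.11 (edgeR adjusted p = 0.405) that became -0.02 with gene length offsets.

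The Psmg genes encode chaperones of α ring assembly. None of the 4 passed the test, with log2 fold changes of -0.50 ± 0.24 for Psmg1, -0.07 ± 0.14 for Psmg2, 0.17 ± 0.34 for Psmg3 and -0.38 ± 0.18 for Psmg4 (edgeR adjusted p of 0.234, 0.796, 0.798 and 0.229). At an unadjusted p under 0.05, 0 of the 4 passed, as in DESeq2 and limma-trend. Psmg4 was lower in each treated library, at 68.6, 104 and 90.9 FPKM against 125, 108 and 111 FPKM. With gene length offsets its log2 fold change became -0.12 (edgeR adjusted p = 0.7575). The groups of the other 3 genes overlapped.

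The fall was not even over gene length or level. Across the 46 genes tested, which share the same 6 libraries, Spearman's rho between the log2 fold change and exon length was 0.315, so that shorter genes tended to lie lower. It was -0.405 with mean FPKM and 0.00907 with the GC content of the longest annotated transcript of each gene. With offsets that remove a smooth trend on gene length from each library, the rho with length was 0.0591. The median log2 fold change was then -0.47 over the members and 0.005 over all genes. With these offsets 24 members fell and Psmb10 rose, against 1155 lower and 838 higher of all 15058 genes tested. The α ring and the structural β subunits kept every call, with medians of -0.89 and -0.99. Psmc2, Psmd6 and Psme2 lost theirs.

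**Figure D4:**
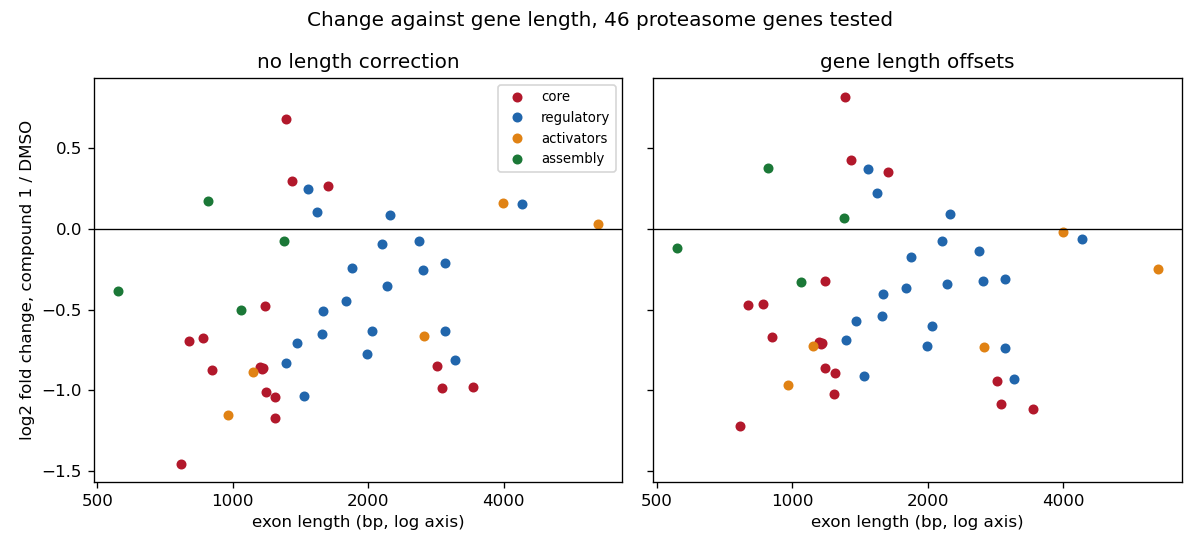
Log2 fold change, compound 1 over DMSO, against exon length (bp, log axis) for the 46 genes tested, coloured by group, without a length correction on the left and with gene length offsets on the right. Most points lie below 0 in both panels, and Psmb10 is the highest point in both.

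Genes that work with the proteasome were taken from lists by known role. Of 11 tested genes that associate with the particle, 2 fell and 2 rose, and over all genes tested 7.8% fell and 6.98% rose. A few calls in so short a list are not a result about the list. Pomp, the maturation factor of the core particle, fell by 0.46 ± 0.10 (edgeR adjusted p = 0.0284) and Sem1, a small lid subunit outside the naming rule, fell by 0.84 ± 0.18 (edgeR adjusted p = 0.0231), on the log2 scale. Pomp lost its call without DMSO library A or B or compound 1 library B or C (adjusted p 0.077 to 0.0933), and Sem1 without any single library but compound 1 library C (0.0508 to 0.0802). With the block the adjusted p was 0.056 for Pomp and 0.0825 for Sem1. Zfand2a, a stress-induced factor that binds the regulatory particle, rose from 1.47, 1.30 and 1.40 FPKM with DMSO to 6.36, 7.23 and 5.54 FPKM, a log2 fold change of 2.20 ± 0.24 (edgeR adjusted p = 0.00225). Its relative Zfand5, an activator of the particle, had a log2 fold change of 0.43 ± 0.10 (edgeR adjusted p = 0.0296) that became 0.12 with gene length offsets (adjusted p = 0.435), and the call was lost without any single library but compound 1 library C (0.0664 to 0.101) and with the block (0.0905).

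Of 8 tested regulators of proteasome genes, 1 rose and 0 fell in edgeR, against 6.98% and 7.8% of all genes. At an unadjusted p under 0.05, 3 were higher and 1 was lower, against 14.6% and 13.5% of all genes, and in DESeq2 likewise 3 and 1, against 13.2% and 12.8%. The called gene was Nfe2l1, at 25.1, 25.8 and 17.1 FPKM with compound 1 and at 12.3, 9.91 and 13.5 FPKM with DMSO, a log2 fold change of 0.93 ± 0.20 (edgeR adjusted p = 0.0257). The transcript of Nfe2l1 was thus higher in each treated library, whereas 27 members were lower, and a link between these changes was not tested. With gene length offsets the adjusted p of Nfe2l1 was 0.0624, and without any single library but compound 1 library C it was 0.0575 to 0.0811. With the block it was 0.0851.

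The ubiquitin genes moved in the direction of the subunits. Of 6 ubiquitin precursor and E1 genes, 4 fell and 0 rose, against 7.8% and 6.98% of all genes, and 0 were higher at an unadjusted p under 0.05 or in DESeq2. Rps27a and Ubb fell by 0.80 ± 0.06 and 0.30 ± 0.04 on the log2 scale, with edgeR adjusted p of 0.000459 and 0.00308. Uba1, the main ubiquitin-activating enzyme, fell by 0.63 ± 0.16 (edgeR adjusted p = 0.0417), and its call was lost without any single library but compound 1 library B (0.0855 to 0.131) and with the block (0.0743). The ubiquitin precursors repeat near-identical sequence, so reads between them are uncertain, and Rps27a also encodes a ribosomal protein.

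Of 12 shuttle and p97 genes, 2 fell and 1 rose, against 7.8% and 6.98% of all genes. So few calls are not a result about the list. Vcp, the p97 ATPase that extracts ubiquitinated proteins, was at 78.5, 102 and 83.7 FPKM with compound 1 and at 141, 152 and 148 FPKM with DMSO, a log2 fold change of -0.73 ± 0.11 (edgeR adjusted p = 0.00666). Its cofactor Nsfl1c fell by 0.52 ± 0.12 (edgeR adjusted p = 0.028) and lost the call with gene length offsets (adjusted p = 0.0597) or without any single library but DMSO library A (0.0634 to 0.0851), and with the block (0.0923). The cofactor Faf1 rose, with a log2 fold change of 0.62 ± 0.11 (edgeR adjusted p = 0.0134, 0.0564 without DMSO library A, and 0.0516 with the block).

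Of 12 tested genes of antigen processing and the interferon response, 1 rose and 1 fell, near the shares of 6.98% and 7.8% over all genes. Tap1 carries peptides into the endoplasmic reticulum, and its gene overlaps Psmb9. Of the exon bases of Psmb9, 15.7% also lie in exons of Tap1, and reads in that stretch are uncertain. Tap1 was at 11.8, 12.1 and 7.14 FPKM with compound 1 and at 3.98, 3.42 and 2.47 FPKM with DMSO. Its log2 fold change was 1.65 ± 0.30 (edgeR adjusted p = 0.0144). The call on Tap1 was lost without DMSO library B or C or compound 1 library A (0.051 to 0.0544). H2-D1, a class I heavy chain, fell by 0.81 ± 0.16 on the log2 scale (edgeR adjusted p = 0.0185), a call that was lost without any single library but compound 1 library B (0.0562 to 0.0702) and with the block (0.061), and its reads are uncertain because class I genes are near-identical.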

How the data were processed

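Total RNA of αTC1 cells (3 compound 1, 3 DMSO libraries) had been amplified by Smart-seq2, which does not keep strand, and made into libraries with Nextera XT. The deposited counts are whole reads per gene that the authors aligned to GRCm38 and assigned to Ensembl exons, and the authors also deposited FPKM. The labels name STAR 2.7.9a, Picard 2.19.2, DESeq2 1.34.0 and R 4.1.3, without roles. The step that made the FPKM is not given in the sources used here. In 98.6% of genes checked, FPKM implied a length within 1% of the summed exons, and FPKM served for levels between genes. Overlapping genes on opposite strands cannot be told apart in these counts.

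Counts were tested with edgeR 4.0.16 (R 4.3.3; TMM, genes kept by filterByExpr at min.count 10 and min.total.count 15, quasi-likelihood test, Benjamini-Hochberg adjustment over all genes tested, threshold 0.05). Fold changes and SEs are from this fit, levels are deposited FPKM as mean ± SD. The scripts were tested on simulated data. DESeq2 1.42.0, limma 3.58.1 on log2(FPKM + 1) and log2(FPKM + 0.1), other normalizations, filters and offsets, thinned counts and leaving out each library were alternatives. Near-identical copies were sought with blastn 2.17.0 (at least 300 aligned bases, 95% identity and 50% of the shorter transcript).

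Members and lists were chosen with earlier results of these data known. The rule for named genes was every member, and list genes past the threshold, up to 6 a list. Some list and marker genes are not reported here by name. Of 12, 9, 6, 12 and 15 list genes, 11, 8, 6, 12 and 12 were tested. Paaf1 was not analysed here. The table marks columns by letter, and no letter could be assigned to a replicate number of the labels. Per the study's methods, cells of a replicate came from a shared batch and were handled together. Deviations from the group means of columns with the same letter correlated at only 0.015 (A), 0.003 (B) and 0.025 (C), so the data do not show whether the letters are these replicates, and the fit without a block was kept as the main one, with a replicate block by letter as an alternative. A comparison of 3 with 3 libraries cannot give an exact permutation p under 0.1.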

Additional observations from a re-analysis of the deposited data

How the results depend on the processing

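Of 27 members called lower, 27 kept their sign and 14 their call in all of 19 alternatives. The other 13 lost it in between 1 (Psma7, Psmb2, Psmb5, Psmb6 and Psmc1, each with the replicate block and gene length offsets together) and 11 alternatives (Psmd6, Psmd12). The number of members lower was 19 to 24 with a library left out, 15 with a replicate block by column letter and gene length offsets together, 21 with the replicate block alone, under which Psma4, Psmd2, Psmd6, Psmd12, Psme2 and Psme3 lost their calls, and 6 at the filter of the study's methods. The lowest with a library left out, 19, came without DMSO library C, and the count of all genes lower was then 706 against 1177. With the replicate block and gene length offsets together, 624 of all 15058 genes tested were lower. The number higher was 0 to 1 with a library left out (1, Psmb10, without DMSO library B), 2 with library size only, and 1 with at least 10 counts in every library, gene length offsets, DESeq2, or limma-trend over genes of at least 1 FPKM (both pseudocounts). The median log2 fold change was -0.43 with library size only, -0.47 with gene length offsets, -0.48 with these and the replicate block, -0.51 with limma-trend and no FPKM minimum, and -0.66 to -0.57 with a library left out, against a pooled SD of library medians of 0.041. Some genes of low level changed sign. Psmb8 ranged from -2.07 (without compound 1 library B) to 1.29 and Psmb9 from -0.20 to 0.93 with a library left out. Psme4 was at -0.25 with gene length offsets, -0.041 with GC content offsets, -0.042 with the replicate block, -0.33 with the block and length offsets, -0.0011 with limma-trend and a pseudocount of 1 (with and without the FPKM minimum), -0.032 with a pseudocount of 0.1, and -0.21 to 0.39 with a library left out. The cause of these changes was not tested. These 3 genes and Psmb7 had at most 2.27 FPKM in any library, and with thinned counts Psme4 was at 0.021 against 0.026.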
